A study of Mus musculus with 24 samples.

Results

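Trp53, which encodes p53, was followed together with 9 genes that regulate it or signal DNA damage to it, across total RNA-seq libraries of mouse preimplantation embryos. The 10 genes (Trp53, Mdm4, Usp7, Trp53bp1, Atm, Atr, Chek1, Chek2, Mdc1 and Brca1) were taken by name from a list, out of 55291 genes in the count files. That list was chosen with earlier results of these data known. Each of the 10 has counts in all 12 libraries, and each passed the filter on low counts in every fit. Zygotes from 8-week-old B6D2F1 (BDF1) females mated with males of the same cross had received antisense oligonucleotides (ASOs) at 20 µM in the male pronucleus, and were then cultured in KSOM. The MERVL-KD embryos received a mixture of 3 ASOs against the endogenous retrovirus MERVL, and the control embryos a scrambled ASO. Embryos were collected as 2-cell (2C, 1.5 dpc), 4-cell (4C) and 8-cell (8C) embryos, the last 2 both labelled 2.5 dpc, and each stage had 2 control and 2 MERVL-KD libraries from separate biological replicates. A library pooled 30 embryos without zona, so differences among single embryos and blastomeres are averaged, and fewer blastomeres with a transcript cannot be told apart from less of it in each.

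p53 is a transcription factor that is held low in unstressed cells, mainly by ubiquitination through MDM2 and by binding of MDM4 (MDMX), a relative of MDM2 that masks its activation domain. Double-strand breaks activate the kinase ATM, and single-stranded DNA at stalled replication forks activates ATR. These kinases phosphorylate p53 and the checkpoint kinases CHK2 and CHK1, while MDC1, 53BP1 and BRCA1 gather on the chromatin around the break. Much of this control acts on proteins, so transcript levels do not measure the activity of the pathway.

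The libraries held from 28167085 to 41482526 counts, of which 15.8% to 25.2% lay in repeat families. MERVL-int transcripts took from 1.07% to 6.57% of the counts in control libraries and from 0.0278% to 0.157% in MERVL-KD libraries, so each library matched its label. The summed level of 6 markers of the 2-cell stage was 594 to 653 CPM (counts scaled to a common library total) in control and 339 to 412 CPM in MERVL-KD 2-cell libraries, and at most 106 CPM later. One of the 6, Tdpoz4, stood at 49.1 to 89.9 CPM in every library, so it was a large part of the later sums. The summed level of 7 later preimplantation markers (among them Pou5f1, Tead4 and Nanog) was 105 to 106 CPM in control 2-cell libraries, 367 to 391 CPM in control 4-cell libraries and 527 to 578 CPM in control 8-cell libraries. In MERVL-KD libraries that sum was 103 to 106, 303 to 337 and 408 to 452 CPM at the 3 stages. Of 10 cumulus and granulosa cell markers, 9 together reached from 0.538 to 4.75 CPM, while Amhr2 stood at 13.5 to 24.6 CPM in every library. A list of 8 sperm, blood and oviduct markers summed to 3.73 to 3.88 CPM in control and 8.00 to 10.4 CPM in MERVL-KD 2-cell libraries, to 2.33 to 2.74 and 5.95 to 10.6 CPM at 4C, and to 3.66 to 4.05 and 3.14 to 5.15 CPM at 8C. Its part in the results was not tested.

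Levels are given as CPM with TMM factors estimated over the 12 libraries. Levels of different genes were compared only after division by the length of their merged exons. In control 2-cell embryos Mdm4 was the highest of the 10 genes, at 169 CPM per kb of exon, followed by Usp7 at 70.9 and Chek1 at 31.8 CPM per kb. Trp53 was the ninth of the 10, at 6.32 CPM per kb (6.10 and 6.53 in its 2 libraries), and Atr was the lowest, at 0.948 CPM per kb. Trp53 was the ninth and Atr the lowest also in control 4-cell and 8-cell embryos, where Usp7 led with 72.5 and 73.6 CPM per kb. Raw counts behind these levels ran from 459 (Atr in a MERVL-KD 4-cell library) to 91934 (Mdm4 in a control 2-cell library).

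Positions are given in GRCm38. Trp53 is on the plus strand at chr11:69580359-69591873, Mdm4 on the minus strand at chr1:132959484-133030561, and Usp7 on the minus strand at chr16:8689595-8792308. Atm, Atr and Chek1 share chromosome 9. Atm lies at chr9:53439149-53536740 on the minus strand, Atr at chr9:95857597-95951781 on the plus strand, and Chek1 at chr9:36708482-36727065 on the minus strand. Chek2 is at chr5:110839979-110874145, Mdc1 at chr17:35841515-35859670, Brca1 at chr11:101488764-101551955 and Trp53bp1 at chr2:121193281-121271407. Exons of Atr share 726 bases with the antisense gene 1700065D16Rik, 462 with the antisense gene Gm16794 and 178 with Gm24004 on the same strand, and exons of Trp53bp1 share 2130 bases with the antisense gene Tubgcp4. The use of strand in counting is not given in the sources used here, so reads in those stretches may be uncertain. The group means of the 3 partners of Atr were at most 1.12 CPM, and those of Tubgcp4 ran from 3.66 to 9.07 CPM.

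The promoters of the genes that the results turn on are shown because Mdm4 and Atm moved in opposite directions between stages in control embryos, Chek2 rose with Atm, and Atr and Trp53 fell in MERVL-KD 4-cell embryos. RefSeq start sites (GRCm38.p6) were matched for 10 of 10 genes, with 2 for Mdm4, of which the one nearer to the first base of the gene is shown. The stretches below end at or before the start site and leave out every base that the count files annotate as exon. Capitals mark letters of 6 motifs searched on both strands.
Mdm4, chr1:133030588-133030837, minus strand: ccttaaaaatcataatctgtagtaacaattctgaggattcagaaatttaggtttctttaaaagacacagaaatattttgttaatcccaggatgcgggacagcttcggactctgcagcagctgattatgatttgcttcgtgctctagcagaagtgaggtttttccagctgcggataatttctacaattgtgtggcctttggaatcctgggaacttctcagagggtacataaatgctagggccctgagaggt
Atm, chr9:53536741-53536921, minus strand: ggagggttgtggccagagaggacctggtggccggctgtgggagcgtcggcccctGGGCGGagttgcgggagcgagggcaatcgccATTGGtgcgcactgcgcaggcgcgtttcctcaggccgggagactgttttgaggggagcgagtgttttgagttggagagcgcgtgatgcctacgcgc
Chek2, chr5:110839733-110839978, plus strand: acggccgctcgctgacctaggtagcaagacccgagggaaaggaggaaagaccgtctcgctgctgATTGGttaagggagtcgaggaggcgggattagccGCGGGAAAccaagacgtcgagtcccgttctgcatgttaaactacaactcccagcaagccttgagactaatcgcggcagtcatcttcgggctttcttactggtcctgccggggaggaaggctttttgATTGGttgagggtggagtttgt
Atr, chr9:95857347-95857596, plus strand: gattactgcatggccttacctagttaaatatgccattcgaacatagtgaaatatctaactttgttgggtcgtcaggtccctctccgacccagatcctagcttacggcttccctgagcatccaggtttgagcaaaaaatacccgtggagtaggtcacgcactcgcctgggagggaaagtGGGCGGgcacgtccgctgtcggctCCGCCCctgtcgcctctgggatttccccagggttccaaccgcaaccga
Trp53, chr11:69580109-69580358, plus strand: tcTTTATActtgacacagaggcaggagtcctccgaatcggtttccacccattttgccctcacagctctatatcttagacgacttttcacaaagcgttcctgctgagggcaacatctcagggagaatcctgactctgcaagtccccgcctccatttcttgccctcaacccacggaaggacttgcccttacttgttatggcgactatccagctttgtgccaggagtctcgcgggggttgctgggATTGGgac
Over the whole windows, from 250 bases before to 50 after the start, both Mdm4 sequences held none of the motifs, with 43.0% G and C in the one shown and 49.7% in that of the second start, 5145 bases into the gene, against a median of 52.7% over 32851 windows. The CCAAT box (CCAAT) was in the windows of 6 of the 10 genes and in 37.4% of all windows, and the GC box (GGGCGG) was in 5 of 10 and in 35.7%. The TATA box (TATAAA) was found for Atm and Trp53 and in 13.6% of all windows. An E2F site (TTTCCCGC or TTTGGCGC) was found for Chek2 and Mdc1 and in 1.56% of all windows, an E-box (CACGTG) for Trp53 and in 7.15%, and a CRE (TGACGTCA) for 0 of 10 and in 1.79%. These are matches of letters and were not tested as binding sites. The start site listed for Chek1 lies 407 bases from the first base of the gene, and that for Usp7 53966 bases away.

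None of the 3 MERVL ASOs matched the sense RNA of any of the 10 genes, introns included, with 4 mismatches or fewer. The closest site in any gene had 5 mismatches. As a control of the search, it found a site in Csnk2a1 for each ASO, with at most 1 mismatch.

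In control embryos, the passage from the 2-cell to the 4-cell stage changed 5 of the 10 genes, and the kinases moved in opposite directions. Mdm4 and Chek1 fell and Chek2, Atm and Trp53bp1 rose, each with an adjusted p under 0.05 in edgeR's quasi-likelihood test over the 12 libraries. In that comparison 26.4% of 24040 genes rose and 28.7% fell, and 45.0% passed with at least 2-fold change, so 5 of 10 is near the share of all genes. Mdm4, the p53 inhibitor, measured 2481 and 2528 CPM in control 2-cell libraries and 509 and 539 CPM in control 4-cell libraries. Its log2 change was -2.26 (SE 0.0923, adjusted p = 1.77e-14), a 4.78-fold fall. Chek1, the kinase downstream of ATR, stood at 149 and 146 CPM and then at 34.1 and 38.4 CPM, a 4.07-fold fall (log2 change -2.02, SE 0.127, adjusted p = 1.11e-11).

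Chek2, the kinase downstream of ATM, measured 33.5 and 39.9 CPM at 2C and 140.4 and 135 CPM at 4C in control embryos, a 3.75-fold rise (log2 change 1.91, SE 0.1204, adjusted p = 1.25e-11). Atm rose 2.44-fold, from 84.6 and 96.2 CPM to 217 and 224 CPM (log2 change 1.29, SE 0.103, adjusted p = 5.67e-10). The rise of Trp53bp1, which encodes the mediator 53BP1, was smaller, from 104 and 129.9 CPM to 144 and 164 CPM (log2 change 0.39, SE 0.113, adjusted p = 0.00568). It did not pass without control 2-cell replicate 1 (0.22, adjusted p = 0.187) or without control 4-cell replicate 2 (0.28, adjusted p = 0.124), where 4 of 10 genes passed, and the other 4 changes passed with each library left out. Trp53, Usp7, Atr, Mdc1 and Brca1 had log2 changes between -0.09 and 0.31 that did not pass. From the 4-cell to the 8-cell stage of control embryos edgeR passed 0 of the 10 genes and DESeq2 0. An unadjusted p under 0.05 was found for 1 of the 10 (Mdm4, log2 change -0.23) and for 4650 of 24040 genes. Over all genes 3.18% rose and 2.68% fell in that step, a split that moved to 1.15% and 6.83% with library size alone in place of TMM.

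**Figure D1:**
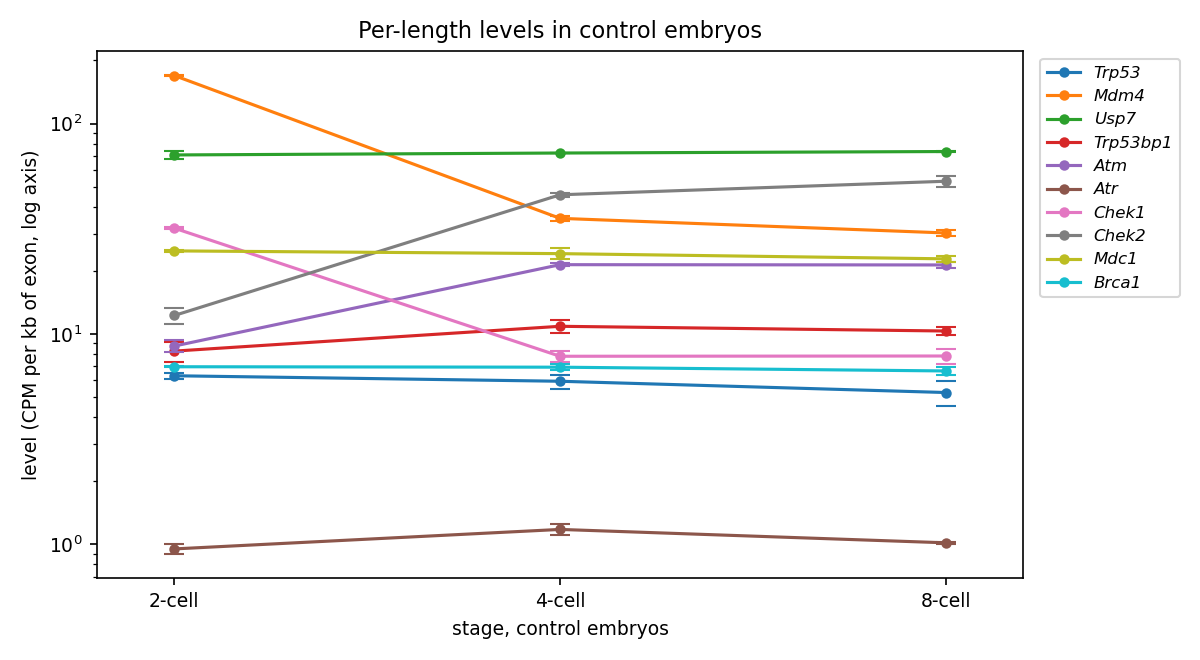
Level of each of the 10 genes (CPM per kb of exon, log axis) in control embryos at 2C, 4C and 8C, with points for the mean of 2 libraries and dashes for each library. The lines of Mdm4 and Chek1 drop and those of Chek2 and Atm climb between the 2-cell and 4-cell stages, while Usp7 stays between 70.9 and 73.6 CPM per kb and Atr is the lowest throughout.

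MERVL-KD and control embryos were then compared at each stage. Because the 10 genes were chosen with earlier results of these data known, their counts beside the shares of all genes are a description and no test. At 4C 5 of the 10 genes were lower in MERVL-KD embryos (Atr, Mdm4, Trp53, Chek1 and Atm) and 0 higher, where 5.84% of 19738 genes were lower and 4.92% higher. At 2C 1 of 10 was lower (Chek1) and 0 higher, against 7.39% lower and 6.70% higher of 20604 genes. At 8C 2 of 10 were lower (Mdm4 and Mdc1) and 0 higher, against 3.56% lower and 1.50% higher of 18414 genes. A fall of at least 2-fold was passed by Atr at 4C alone, while 6.61%, 4.54% and 1.70% of all genes passed with at least 2-fold change at the 3 stages. The median log2 fold change of the 10 genes was -0.13, -0.36 and -0.32 at 2C, 4C and 8C, beside 0.01, 0.03 and 0.01 over all genes. Every MERVL-KD library lay below every control library for 5, 8 and 6 of the 10 genes at the 3 stages, against 33.7%, 26.4% and 25.9% of all genes, and above for 0, against 23.8%, 28.0% and 23.6%. With 2 libraries a group the p-values rest on the spread between these libraries and on the spread shared across genes. Fold changes were fitted within the 4 libraries of a stage, with TMM factors of those libraries, and can differ from the ratio of the levels. At 2C the levels lay further toward lower in MERVL-KD than the fits. Mdm4 was at 84.9% of control by level and 1.11-fold lower by the fit. Chek2 was at 99.0% by level with a fitted log2 fold change of 0.07. The counts of libraries that lay apart rest on the levels.

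**Figure D2:**
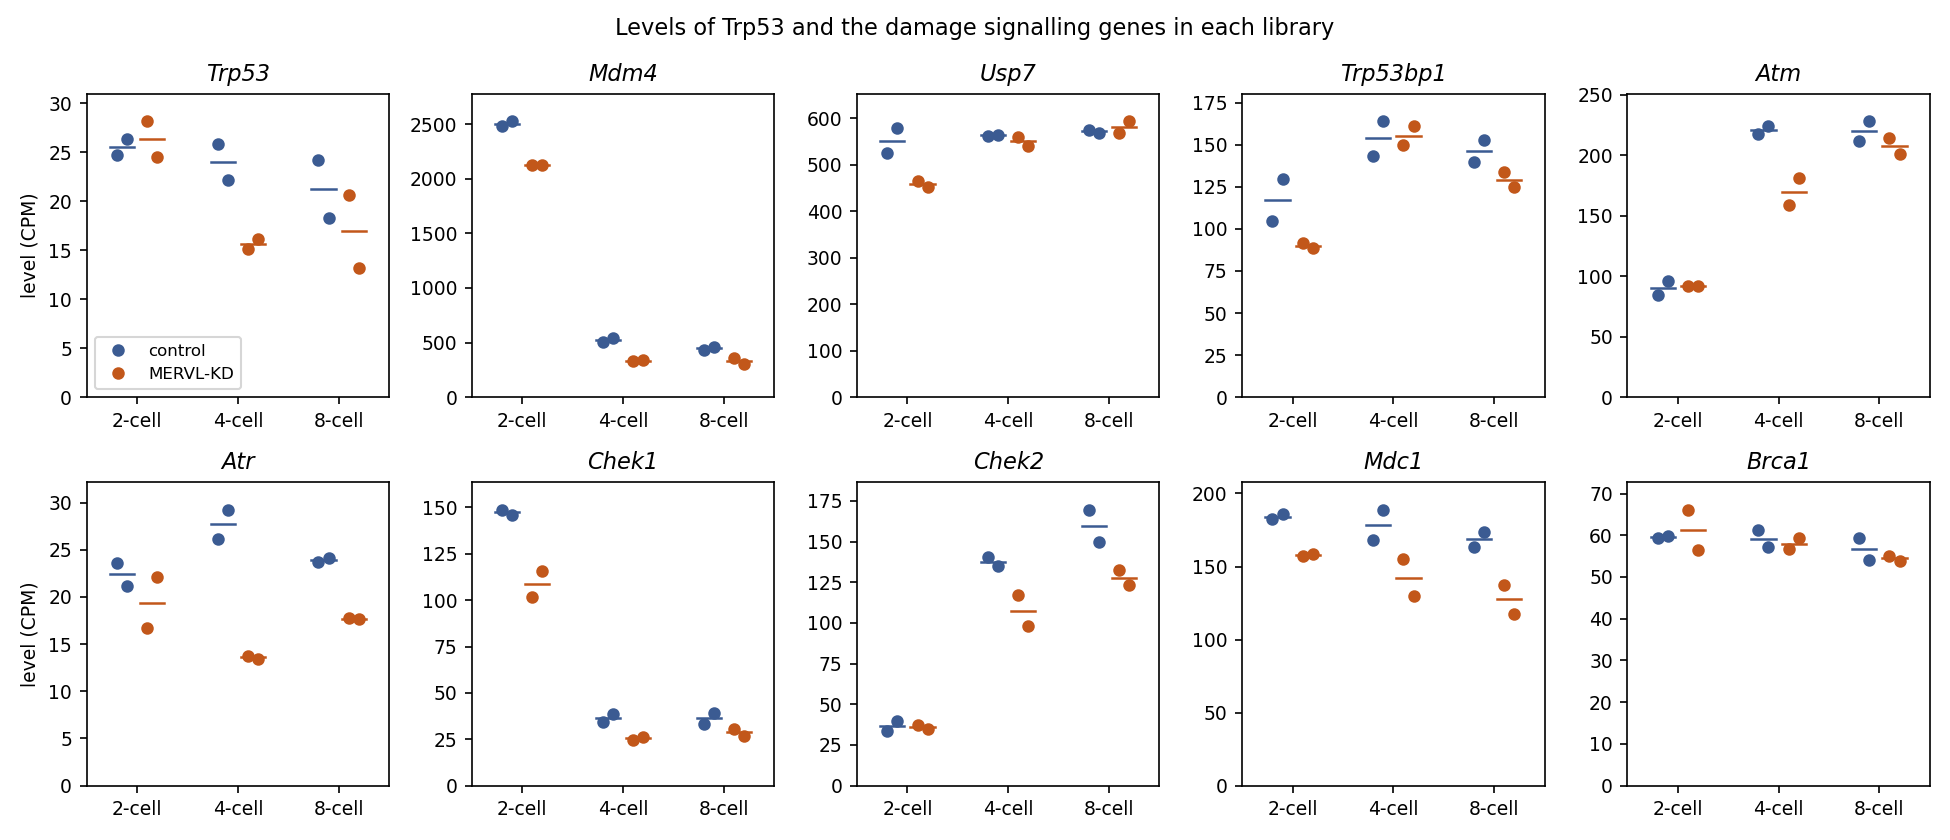
Level of each gene in each library (CPM, linear axes that start at 0 and differ between panels), with control in blue, MERVL-KD in orange and a line at the mean of 2 libraries. Control and MERVL-KD libraries stand apart most clearly at 4C for Atr, Trp53 and Atm. Those of Mdm4, Chek1 and Mdc1 stand apart at every stage with TMM factors, while those of Brca1 overlap at every stage. By library size alone Mdm4 at 2C was higher in MERVL-KD (2525 and 2468 CPM) than in control libraries (2323 and 2225 CPM).

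Trp53 itself did not pass at 2C, where its groups overlapped at 24.7 and 26.4 CPM in control and 28.2 and 24.5 CPM in MERVL-KD libraries (log2 fold change 0.13, SE 0.138, adjusted p = 0.609). At 4C it measured 25.9 and 22.2 CPM in control and 15.2 and 16.2 CPM in MERVL-KD libraries. These groups did not overlap, and Trp53 was 1.53-fold lower in MERVL-KD embryos (log2 fold change -0.61, SE 0.164, adjusted p = 0.0357). Without control replicate 1 the change was -0.50 with an adjusted p of 0.252, and without MERVL-KD replicate 1 it was -0.57 with an adjusted p of 0.0721, so the call rests on those libraries. At 8C Trp53 measured 24.2 and 18.3 CPM in control and 20.7 and 13.2 CPM in MERVL-KD libraries, groups that overlapped (log2 fold change -0.32, SE 0.225, adjusted p = 0.495). The result there turned on 1 library: without MERVL-KD replicate 1 the change was -0.68 (adjusted p = 0.0301). Over the 6 groups the mean level fell from 26.4 CPM in MERVL-KD 2-cell embryos through 25.5, 24.1 and 21.3 CPM in control 2-cell, 4-cell and 8-cell embryos to 16.9 CPM in MERVL-KD 8-cell and 15.7 CPM in MERVL-KD 4-cell embryos, and each neighbour in this order overlapped the next.

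Mdm4 was lower in MERVL-KD than in control embryos at 4C and 8C. At 2C it measured 2129.95 and 2124 CPM in MERVL-KD against 2481 and 2528 CPM in control libraries, which did not overlap but did not pass (log2 fold change -0.15, SE 0.0666, adjusted p = 0.153). At 4C the MERVL-KD libraries held 329 and 336 CPM against 509 and 539 CPM in control, a 1.57-fold difference (log2 fold change -0.65, SE 0.0849, adjusted p = 0.000603) that passed with each library left out and under each alternative setting. At 8C they held 362 and 307 CPM against 434 and 459 CPM (log2 fold change -0.41, SE 0.0931, adjusted p = 0.0282). The 8-cell difference did not pass without control replicate 1 (-0.44, adjusted p = 0.0526) or without control replicate 2 (-0.36, adjusted p = 0.1196). Usp7, a deubiquitinase that acts on both MDM2 and p53, changed by -0.18, -0.03 and 0.03 on the log2 scale at 2C, 4C and 8C, and none of these passed. Its 12 libraries ran from 451 to 593 CPM, with the lowest pair in MERVL-KD 2-cell embryos.

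Atr, the kinase of stalled forks, had the lowest log2 fold change of the 10 genes at 4C, where it measured 26.2 and 29.3 CPM in control and 13.8 and 13.4 CPM in MERVL-KD libraries, a 2.03-fold difference (log2 fold change -1.02, SE 0.159, adjusted p = 0.00194). It passed under each of 10 alternative settings and with each of the 4 libraries left out, where the change lay between -1.10 and -0.95. At 2C the groups overlapped, at 23.6 and 21.2 CPM in control and 16.7 and 22.1 CPM in MERVL-KD libraries (log2 fold change -0.13, adjusted p = 0.684). At 8C they did not overlap, at 23.7 and 24.1 CPM in control and 17.7 and 17.7 CPM in MERVL-KD libraries, but the change did not pass (log2 fold change -0.43, SE 0.152, adjusted p = 0.140).

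Atm, the kinase of double-strand breaks, was lower in MERVL-KD embryos at 4C, where MERVL-KD libraries held 159 and 181 CPM and control libraries 217 and 224 CPM (log2 fold change -0.37, SE 0.0971, adjusted p = 0.0317). It did not pass without control replicate 1 (adjusted p = 0.112), control replicate 2 (0.180) or MERVL-KD replicate 1 (0.0828). At 2C and 8C its groups overlapped, with log2 fold changes of 0.11 and -0.07 that did not pass. Mean levels of Atm in MERVL-KD embryos were 91.97 CPM at 2C, 169.9 CPM at 4C and 208 CPM at 8C, beside 90.4, 220.5 and 219.8 CPM in control embryos.

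Chek1 was lower at 2C and 4C. At 2C MERVL-KD libraries held 102 and 116 CPM against 149 and 146 CPM in control (log2 fold change -0.36, SE 0.0932, adjusted p = 0.0173). The difference did not pass without control replicate 1 (adjusted p = 0.0515) or without MERVL-KD replicate 1 (0.111). At 4C they held 24.9 and 26.2 CPM against 34.1 and 38.4 CPM (log2 fold change -0.50, SE 0.141, adjusted p = 0.0438), and of the 4 fits that left out a library it passed in that without MERVL-KD replicate 2. The adjusted p was 0.0751 and 0.293 without control replicate 1 and 2, and 0.0829 without MERVL-KD replicate 1. At 8C they held 30.8 and 26.8 CPM against 33.5 and 39.2 CPM (log2 fold change -0.33, adjusted p = 0.235). Chek2 measured 117 and 98.3 CPM in MERVL-KD against 140.4 and 135 CPM in control 4-cell libraries, and 133 and 123 CPM against 169.6 and 149.6 CPM at 8C. These groups did not overlap, and the changes of -0.35 (adjusted p = 0.0643) and -0.31 (adjusted p = 0.0968) did not pass. DESeq2 passed Chek2 at 4C.

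Among the mediators Mdc1 was lower in MERVL-KD embryos at 8C, and Trp53bp1 and Brca1 passed at no stage. Mdc1, the scaffold that binds phosphorylated H2AX, measured 138 and 118 CPM in MERVL-KD against 163 and 174 CPM in control 8-cell libraries (log2 fold change -0.39, SE 0.101, adjusted p = 0.0451). It did not pass without control replicate 1 (adjusted p = 0.0844), control replicate 2 (0.187) or MERVL-KD replicate 2 (0.0622). At 4C Mdc1 held 155 and 129.99 CPM against 168 and 189 CPM (log2 fold change -0.32, adjusted p = 0.0928), and at 2C 157 and 159 CPM against 182 and 186 CPM (log2 fold change -0.14, adjusted p = 0.325). Trp53bp1 measured 91.6 and 88.6 CPM in MERVL-KD against 104 and 129.9 CPM in control 2-cell libraries, groups that did not overlap (log2 fold change -0.29, adjusted p = 0.0742), and it had changes of 0.02 and -0.17 later. Brca1, a repair factor of homologous recombination, ran from 53.9 to 66.1 CPM over the 12 libraries, and its groups overlapped at every stage (log2 fold changes 0.13, -0.02 and -0.05).

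**Figure D3:**
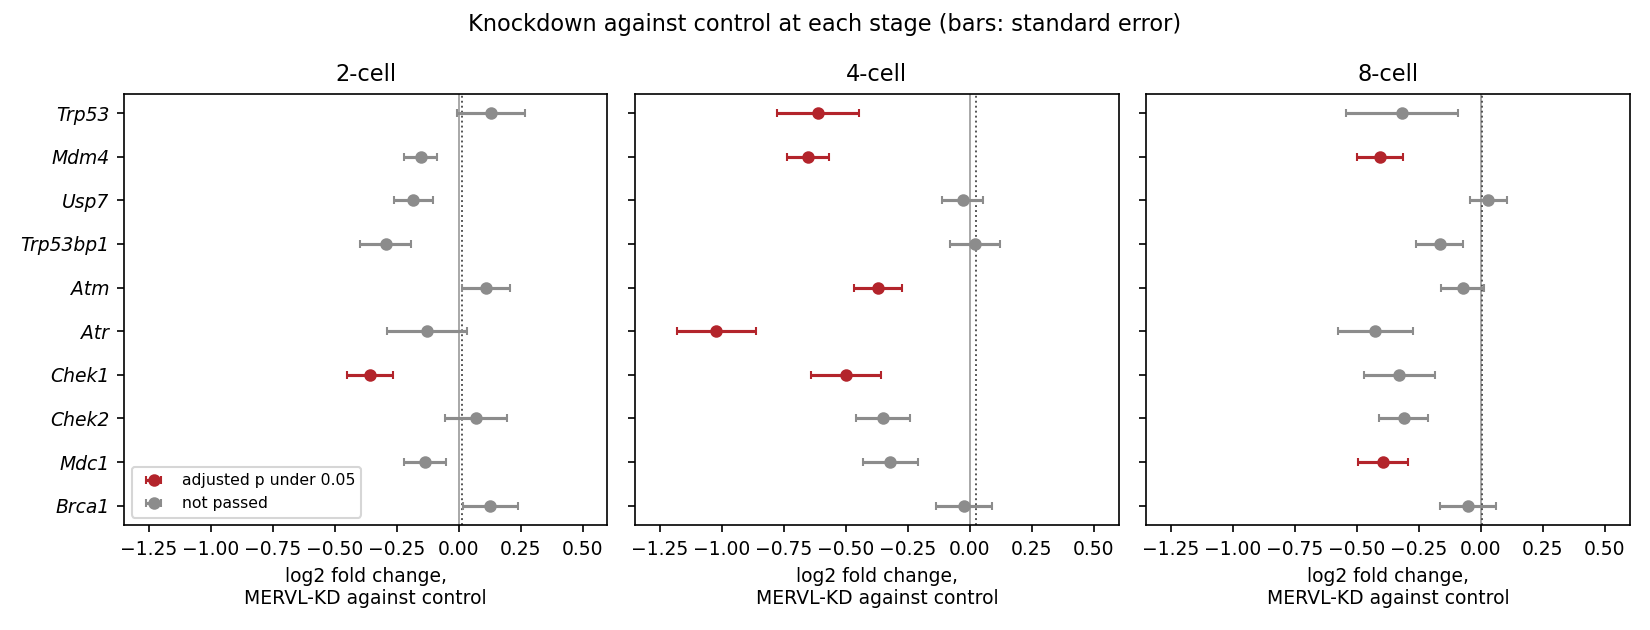
Log2 fold change of MERVL-KD against control for each gene at 2C, 4C and 8C, with bars of 1 standard error, red for an adjusted p under 0.05 and a dotted line at the median of all genes. The 4-cell panel holds 5 red points, the lowest of them Atr at -1.02, the 2-cell panel 1 and the 8-cell panel 2.

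The difference between stages was itself tested as an interaction, and 0 of the 10 genes passed in edgeR for any pair of stages, where 4.16% (4-cell against 2-cell), 0.620% (8-cell against 4-cell) and 4.03% (8-cell against 2-cell) of all genes did. Unadjusted p-values under 0.05 were found for 5, 1 and 1 of the 10, and for 4158, 2749 and 4009 of 24040 genes. DESeq2 passed 2 (Atr and Mdm4), 0 and 0 of the 10, and 1560, 438 and 1421 of 45565 genes with a count. The change of Atr was lower at 4C than at 2C by a log2 difference of -0.82 (SE 0.235, adjusted p = 0.0528), and that of Mdm4 by -0.42 (SE 0.125, adjusted p = 0.0611). For Trp53 the difference was -0.66 (SE 0.276, adjusted p = 0.207). A gene that passed at one stage and not at another was therefore not shown to differ between the stages.

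Several sums of the marker genes also differed at 4C. Later preimplantation markers summed to 303 to 337 CPM in MERVL-KD against 367 to 391 CPM in control 4-cell libraries. The 2-cell markers summed to 91.7 to 93.4 against 104 to 106 CPM, a large part of it Tdpoz4, which was at 49.1 CPM or more in every library. The 10 cumulus and granulosa markers summed to 22.2 to 26.1 against 21.9 to 23.8 CPM, and without Amhr2 to 1.43 to 2.34 against 1.08 to 1.28 CPM. The sperm, blood and oviduct markers summed to 5.95 to 10.6 against 2.33 to 2.74 CPM. Of the last list, 6 of 8 markers had a count in MERVL-KD 4-cell libraries, where Tnp1 and Hbb-bs were at 0, and Hba-a1, a haemoglobin gene, stood at 3.59 to 7.44 CPM against 0.312 to 1.42 CPM in control. At 2C, where Chek1 was lower, Ptprc and Hbb-bs were at 0 in MERVL-KD libraries. Ovgp1, of the oviduct, stood at 3.02 to 5.03 against 0.669 to 1.18 CPM at 2C, and at 0.521 to 1.28 against 0.972 to 1.22 CPM at 4C. The cumulus and granulosa markers went the other way at 2C, at 16.9 to 18.7 CPM in MERVL-KD against 20.0 to 22.7 CPM in control. Without Amhr2 they summed to 3.36 to 3.47 against 3.60 to 4.75 CPM. In control embryos Mdm4 and Chek1 fell and Chek2 and Atm rose from 2C to 4C. In MERVL-KD against control embryos at 4C, Mdm4 (-0.65), Chek1 (-0.50) and Atm (-0.37) were lower. Chek2 (-0.35) did not pass. The part of developmental pace or of RNA from other cells in the differences was not tested. Trp53 and Atr did not pass between the 2-cell and 4-cell stages of control embryos with TMM, and Atr passed as higher at 4C with library size alone.

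Scaling moved the values. Repeat families took 23.6% and 25.2% of the counts in control and 16.5% and 15.8% in MERVL-KD 2-cell libraries, while their shares overlapped at 4C and 8C. With library size alone in place of TMM the median log2 fold change of all genes was 0.30, 0.09 and 0.13 at 2C, 4C and 8C. At 2C 4 of 10 genes (Atm, Brca1, Chek2 and Trp53) then passed as higher and 0 as lower, where 20.9% of all genes were higher and 3.35% lower, with changes of 0.36 to 0.42 and a median of 0.15 over the 10, below the median of all genes. Chek1 was at -0.07 (adjusted p = 0.635) on that scale. At 4C Atr (-0.96) and Mdm4 (-0.59) still passed as lower, where 4.10% of all genes were lower and 5.47% higher, while Trp53 (-0.55, adjusted p = 0.0662), Chek1 (-0.44, 0.0904) and Atm (-0.31, 0.0607) did not. At 8C 0 passed by library size in edgeR, where 3.05% of all genes were higher and 1.96% lower, and Mdm4 was at -0.28 and Mdc1 at -0.26. In the step from 2C to 4C of control embryos 5 of the 10 rose and 2 fell by library size, against 3 and 2 with TMM, where 29.0% of all genes rose and 26.0% fell by library size. The median of the 10 genes in MERVL-KD against control lay below that of all genes at each stage under both scalings.

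**Figure D4:**
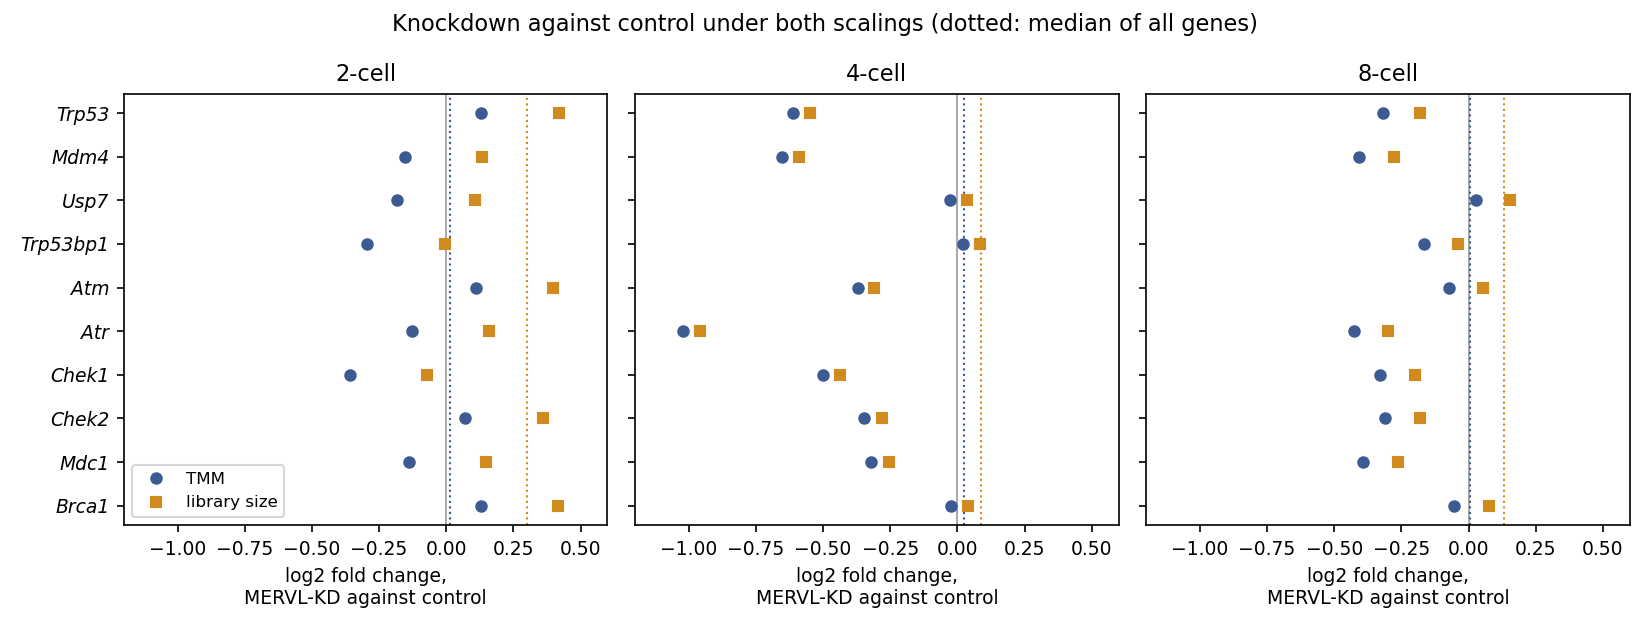
Log2 fold change of MERVL-KD against control for each gene with TMM factors (blue circles) and with library size alone (orange squares), with dotted lines at the medians of all genes. At 2C library size moves all 10 genes to the right together with the median of all genes (0.30), and at 4C Atr, Mdm4 and Trp53 stay left of 0 on both scales.

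Other genes of the pathway were read from 4 hand-written lists, also chosen with earlier results of these data known. Over all genes 7.39%, 5.84% and 3.56% were lower and 6.70%, 4.92% and 1.50% higher in MERVL-KD embryos at 2C, 4C and 8C. Of 31 further p53 regulators, 1 was higher and 1 lower in MERVL-KD embryos at 2C, 3 were higher and 3 lower at 4C, and 0 of 30 tested were higher and 1 lower at 8C, with medians of -0.11, -0.12 and -0.08. For Mdm2, the ubiquitin ligase of p53 and a transcriptional target of it, the log2 fold change was -0.19 at 2C (adjusted p = 0.161), 0.32 at 4C (adjusted p = 0.0495) and 0.32 at 8C (adjusted p = 0.0619). Its levels at 4C were 140 and 148 CPM in control and 177 and 179 CPM in MERVL-KD libraries. Ppm1d, which encodes the phosphatase WIP1 that reverses damage signals, was lower at 2C (39.0 and 35.1 CPM in control, 24.7 and 20.5 CPM in MERVL-KD, log2 fold change -0.63, adjusted p = 0.00684) and higher at 4C (7.29 and 7.15 against 14.1 and 17.6 CPM, log2 fold change 1.14, adjusted p = 0.00463).

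Other p53 regulators that passed were Trp53bp2 at 2C (0.77), Ppp1r13b at 4C (0.54), both of the ASPP family that binds p53, and, lower, the ubiquitin ligases Cop1 (-0.60) and Ube4b (-0.65) and the corepressor Trim28 (-0.33) at 4C. Trim28 was lower also at 8C, at 426 and 423 CPM in MERVL-KD against 641 and 630.3 CPM in control libraries (-0.57, adjusted p = 0.00098).

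Among 24 damage sensors and partners of the kinases, 2 were lower at 2C, 5 at 4C and 0 at 8C in edgeR, where 7.39%, 5.84% and 3.56% of all genes were lower. In this list 0 were higher at any stage, with medians of -0.04, -0.20 and -0.12. At 8C 5 had an unadjusted p under 0.05, all lower, as did 3582 of 18414 genes in either direction, and DESeq2 passed 0. Rpa2, a subunit of the single-strand DNA binding complex RPA that recruits ATR, fell by 1.18 on the log2 scale at 2C (36.9 and 39.6 CPM in control, 14.3 and 17.7 CPM in MERVL-KD, adjusted p = 4.64e-05) and by 0.74 at 4C (adjusted p = 0.00423). Tipin, of the fork protection complex, fell by 0.38 and 0.53 at these stages. Also lower at 4C were Etaa1 (-0.63), an activator of ATR, and Tti1 (-0.70), of the complex that stabilizes kinases of the ATM and ATR family.

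Of 21 chromatin mediators and repair partners tested (22 listed), Brca2 was lower at 2C (-0.26, adjusted p = 0.0272), Ube2n, the ubiquitin-conjugating enzyme of RNF8 signalling, was higher at 4C (0.61, adjusted p = 0.0394), and 0 passed at 8C by edgeR or DESeq2, where 3 had an unadjusted p under 0.05. At 4C Ube2n measured 73.4 and 109 CPM in MERVL-KD against 62.8 and 56.8 CPM in control libraries, with the wider gap in MERVL-KD replicate 2. Over all genes 7.39% were lower at 2C and 4.92% higher at 4C, and 3582 of 18414 had an unadjusted p under 0.05 at 8C. The medians of the list were -0.08, -0.07 and 0.02.

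Of 10 checkpoint effectors, cell cycle regulators downstream of the checkpoint kinases, 5 were lower at 2C, 1 at 4C and 2 at 8C and 0 higher. Over all genes 7.39%, 5.84% and 3.56% were lower at the 3 stages. The medians of the list were -0.32, -0.02 and -0.22. Wee1, the kinase that inhibits CDK1, fell by 0.95 at 2C (37.7 and 43.6 CPM in control, 20.3 and 19.3 CPM in MERVL-KD, adjusted p = 0.000155), and Cdc25c, the phosphatase that activates CDK1, by 0.82 (adjusted p = 4.92e-05). Cdk1 was lower at all 3 stages, by 0.41, 0.66 and 0.66 on the log2 scale with adjusted p-values of 0.00998, 0.00183 and 0.00154. At 4C it measured 99.3 and 88.0 CPM in MERVL-KD against 148 and 149 CPM in control libraries. Ccnb1, the mitotic cyclin of CDK1, was lower at 8C (-0.48, adjusted p = 0.00351). By library size the counts at 2C were 10 higher and 0 lower for the p53 regulators, 2 and 1 for the sensors, 4 and 0 for the mediators and 1 and 2 for the effectors, where 20.9% of all genes were higher and 3.35% lower, and Cdk1 at 2C was at -0.12 (adjusted p = 0.398). On that scale the p53 regulators came to 4 higher and 2 lower at 4C, where 5.47% of all genes were higher and 4.10% lower. At 8C they came to 1 and 1 by library size, and 1 mediator was higher. There 3.05% of all genes were higher and 1.96% lower.

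Across the 12 libraries the genes whose log2 level was most like that of Trp53, of 7589 genes with a mean of at least 10 CPM, were Sugp1 (r = 0.893), Zfp874b (0.885), Gm37567 (0.884), Zmat2 (0.879) and Usp32 (0.876). The 12 libraries share 6 groups and one scaling, so these values describe likeness over stages and knockdown together.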

How the data were processed

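Total RNA libraries (SMART-Seq Stranded) were sequenced in pairs by the authors, who aligned reads to mm10 with STAR 2.5.3a, kept unique alignments, summed them by gene (GENCODE) and by repeat family (RepeatMasker) using featureCounts, and deposited raw counts. Most low counts (71.8% to 74.7% of those from 1 to 50) are even, so both mates were mostly counted and counts overstate the fragments. There are no molecular identifiers.

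From the counts, edgeR 4.0.16 (R 4.3.3) was run with filterByExpr, TMM and the robust quasi-likelihood test, two-sided, on the 4 libraries of a stage, and on all 12 for stage changes and interactions. P-values were adjusted by Benjamini-Hochberg over all genes and repeat families. A gene passed at an adjusted p under 0.05. The study called genes at 2-fold. SE is the log2 fold change divided by the square root of F. The method was tested on simulated data.

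The members and lists were chosen with earlier results of these data known. Named beside the members were Mdm2, Ppm1d, up to 3 passing genes per list, direction and stage with the largest change, and the 5 genes most like Trp53. Replicates differed by more than counting noise (chi-square per degree of freedom 9.29 to 15.7) and are biological per the labels. Replicate numbers did not pair the libraries (correlations of deviations from -0.011 to 0.006). Alternatives were DESeq2 1.42.0, its size factors, library size, other count filters, a replicate block, a non-robust fit, counts halved, repeats left out, all 12 libraries in one fit, and each library left out. ATAC-seq libraries were not analysed here.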

Additional observations from a re-analysis of the deposited data

Results flagged for a closer look

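No member met a rule for a closer look. The results below are of other pathway genes named above whose change in MERVL-KD embryos differed between stages by the interaction test of edgeR over the 12 libraries. Apart from Mdm2 and Ppm1d, these genes had been named for passing at a stage in the same libraries, which favoured passing here. Mdm2 and Ppm1d were named in any case, but they too passed at a stage. The lists of all these genes were chosen with earlier results of these data known. Of 86 pathway genes tested, 10 passed for 4-cell against 2-cell and 6 for 8-cell against 2-cell, where 4.16% and 4.03% of all genes did. The contrasts share the 2-cell libraries and are not independent of each other.

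The change of Ppm1d was higher at the 4-cell than at the 2-cell stage by 1.85 on the log2 scale (SE 0.260, adjusted p = 0.000259), and at the 8-cell stage by 1.02 (adjusted p = 0.0289). That of Mdm2 was higher by 0.58 at the 4-cell stage (adjusted p = 0.0121) and by 0.59 at the 8-cell stage (adjusted p = 0.0109), both against the 2-cell stage. Cdc25c differed by 0.98 (adjusted p = 0.00366) and 1.17 (adjusted p = 0.000814) in the same contrasts, and Wee1 by 0.93 at the 4-cell stage (adjusted p = 0.0343). The changes of the ubiquitin ligases Cop1 and Ube4b were lower at the 4-cell than at the 2-cell stage, by -0.48 (adjusted p = 0.0343) and -0.64 (adjusted p = 0.00684). At the 8-cell against the 2-cell stage Rpa2 differed by 0.88 (adjusted p = 0.0113) and Brca2 by 0.53 (adjusted p = 0.0116).

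All 11 differences passed by DESeq2 and with a replicate block, and 5 of 11 passed with library size alone, where the median of all genes was -0.25 and -0.20 for the 2 contrasts. Each kept its direction in these 3 alternatives.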

How the results depend on the processing

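With 2 libraries a group and counts that hold both mates of a pair, the smallest difference of a member that passed was 1.28-fold (Chek1 at 2C), and a member that did not pass was not shown to be equal between the groups. The members' falls at 4C of Atr and Mdm4 passed in every alternative fit and with every library left out. Of 420 recomputed member values, 361 kept their direction and side of the threshold. Most of the 420 belong to genes and stages that did not pass in the main fit, so 361 does not measure how stable the calls are. Of 10 alternative settings, Chek1 passed in 9 at 2C and 8 at 4C, and Trp53 and Atm at 4C in 8 and 9. At 8C Mdm4 passed in 9 and Mdc1 in 7. Below, main counts stand in brackets.

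With library size alone, 4 members passed at 2C [1], 2 at 4C [5] and 0 at 8C [2], 20 pathway genes passed at 2C [10] and 5 at 8C [3], all genes came to 4991 at 2C [2904], 1 member passed from control 4C to 8C [0] and 5 in the interaction of 4C and 2C [0]. In the same alternative the changes turned at 2C for Mdm4 (0.13), Usp7 (0.11), Atr (0.16), Mdc1 (0.15), Brca2 (0.025) and Mdm2 (0.097), at 4C for Usp7 (0.035) and Brca1 (0.038), and at 8C for Atm (0.054) and Brca1 (0.076). The median of all genes shifts by construction, and no other cause was tested.

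The threshold of at least 2-fold left 0, 1 and 0 members, 1, 1 and 0 pathway genes and 1362, 897 and 313 of all genes [2904, 2125 and 932] at 2C, 4C and 8C. Genes with at least 1 count gave 2 members at 2C, 10 pathway genes and 1609 genes at 8C, and 1 member in the interaction. At least 10 counts in every library gave 6 pathway genes at 8C, 1 member from control 4C to 8C and 2 in the interaction. DESeq2 gave 8 pathway genes at 8C and 2 members in the interaction, counts halved 5 and 2. All 12 libraries in one fit gave 2 members at 2C (Chek2 turned, to -0.015) and 5 pathway genes at 8C. The non-robust fit and the fit without repeat families each gave 1 member at 8C (Mdm4). The replicate block, where the number does not pair the libraries, gave 3 members at 4C (Atm, Atr and Mdm4) and 8 pathway genes at 8C. The cause was not tested in these.

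With each library left out, where the lone library of a group is assumed to vary like the others, between 0 and 1 members passed at 2C, 2 and 5 at 4C, 0 and 4 at 8C, and 0 and 2 in the interaction. Pathway genes ran from 6 to 12 at 2C and from 3 to 14 at 8C, and all genes from 628 to 1849 at 8C. Small changes turned for Atr (-0.35 to 0.048), Chek2 (-0.053 to 0.18) and Brca1 (-0.0069 to 0.23) at 2C, Trp53bp1 (-0.073 to 0.11) and Brca1 (-0.082 to 0.027) at 4C, and Usp7 (-0.0046 to 0.058) and Brca1 (-0.12 to 0.022) at 8C.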

Other observations

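Between the 2-cell and 4-cell stages of control embryos the pathway lists moved in both directions. Of 31 p53 regulators 12 rose and 13 fell, of 24 damage sensors and kinase partners 7 rose and 6 fell, of 21 chromatin mediators and repair partners 9 rose and 6 fell, and of 10 checkpoint effectors 4 rose and 3 fell, where 26.4% of all genes rose and 28.7% fell. Their median log2 changes were -0.26, -0.05, 0.41 and -0.0037, beside -0.06 over all genes. By library size 15 rose and 11 fell, 9 and 4, 10 and 2, and 4 and 1 in the same lists, where 29.0% of all genes rose and 26.0% fell. From the 4-cell to the 8-cell stage 6 p53 regulators rose and 1 fell, and 3 checkpoint effectors rose and 1 fell, where 3.18% of all genes rose and 2.68% fell. With library size alone these counts turned, to 0 and 5 p53 regulators and 1 and 2 checkpoint effectors, where 1.15% of all genes rose and 6.83% fell. Ppm1d stood at 39.0 and 35.1 CPM in control 2-cell libraries, 7.29 and 7.15 CPM in control 4-cell libraries and 7.00 and 6.36 CPM in control 8-cell libraries. Trim28 stood at 191 and 209 CPM, 478 and 460.2 CPM and 641 and 630.3 CPM in the same groups.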
